A study of Homo sapiens with 9 samples.

Results

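Transcripts of 10 genes that respond to endoplasmic reticulum (ER) stress and to amino acid shortage were followed in NT2 cells exposed to organophosphorus compounds: ERN1, XBP1, ATF4, DDIT3, TRIB3, ASNS, CHAC1, DDIT4, HERPUD1 and CALR. The genes were chosen by name, because neuropathy target esterase (NTE), the enzyme that mipafox inhibits, is a protein of the ER membrane. They are represented by 11 of the 42405 non-control probes of the array. Of those 11 probes, 10 probes for 9 genes passed the filter on dim probes that left 29134 probes for testing, and ERN1 did not pass.

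The NT2 line, grown from a human embryonal carcinoma, turns towards neural precursors with retinoic acid. All cultures, controls included, received 10 µM retinoic acid for 4 days, and during these 96 h they held no added compound (control), 1 µM paraoxon or 5 µM mipafox. Paraoxon is the active derivative of the insecticide parathion and inhibits acetylcholinesterase, whereas mipafox also inhibits NTE and can cause a delayed neuropathy. RNA was hybridised to 9 one-colour arrays, 3 for each treatment, named A, B and C. The design text calls the replicates biological and the methods call them technical, so the p-values measure only the spread between these arrays.

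The unfolded protein response is run by sensors in the ER membrane. Inositol-requiring enzyme 1, encoded by ERN1, splices the XBP1 messenger when misfolded proteins accumulate, and XBP1 then switches on chaperones and degradation factors. A second branch, in which kinases phosphorylate the initiation factor eIF2, lowers protein synthesis in general and raises the translation of ATF4, and the same branch is entered when amino acids run short. ATF4 and its partner DDIT3 (CHOP) in turn raise genes such as TRIB3, ASNS and CHAC1. As these factors are regulated in part by splicing and translation, a transcript level covers only some of their control.

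The arrays lay on 2 slides, and this layout touches every comparison below. Mipafox A was hybridised on slide 1 beside all 3 control arrays, whereas mipafox B and C were on slide 2 beside all 3 paraoxon arrays. Paraoxon and control therefore share no slide. The 75th percentile of signal, to which each array was scaled, ran from 802 on mipafox A to 1590 on paraoxon A, and the share of probes well above background ran from 65.7% to 73.6%. All 6 pluripotency markers and all 6 retinoic acid response markers examined were well above background on the 9 arrays, as were 3 of 4 neural progenitor markers and 2 of 4 neuronal markers, and of the 3 astrocyte markers only S100B was, with GFAP well above background on none. Of the other classes examined, 2 of 3 mesenchymal markers (COL1A1 and LUM) and 1 of 3 endoderm markers (FOXA2) were also well above background on the 9 arrays. The summed signal of the pluripotency markers is given as log2 relative to the 75th percentile. It was 6.42 to 6.51 in control, 6.45 to 6.55 with paraoxon and 6.05 to 6.84 with mipafox.

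Each probe is a 60-base oligonucleotide, and its signal reads only the stretch of transcript that it matches. The first 30 bases are given for the genes whose paraoxon arrays did not overlap the control arrays, and for both CHAC1 probes because they differ in what they read; no letters are capitalised, since no part of a probe is singled out.
ASNS: ggactgtgggtagataggggaacaatgaga
TRIB3: acacttggggtccacaatcccaggtccata
HERPUD1: tgcagtgctttactttaaactaaggggaac
DDIT4: tcgtggaggtggtttgtgtatcttactggt
CHAC1, transcript base 656: ttctccggccacaaccttgaatacttgctg
CHAC1, transcript base 1473: ttcctgggaagctcatcactacaggccctg
In hg19, the build named in the scanner files, the ASNS probe lies at chr7:97481461-97481520 on the minus strand, TRIB3 at chr20:378107-378166, HERPUD1 at chr16:56977700-56977759, DDIT4 at chr10:74035363-74035422, and the CHAC1 probes at chr15:41247814-41247873 and chr15:41248631-41248690, the last 5 on the plus strand. The DDIT3 probe spans 327 genomic bases at chr12:57911200-57911526 and so crosses an intron. The XBP1 probe, at chr22:29190733-29190792, begins at transcript base 1575 and was read as XBP1 transcript in total.

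No member probe was called in any comparison. The limma fit of all 9 arrays, in which a call needed a log2 fold change past 1 in size together with an adjusted p below 0.05, called 0 of the 10 member probes, against 0% of the 29134 probes tested, in paraoxon against control, in mipafox against control (0%) and in paraoxon against mipafox (0%). At an unadjusted p under 0.05, paraoxon against control counted 0 member probes against 13.3% of all probes tested, and mipafox against control 0 against 6.96%. Paraoxon against mipafox counted 2 member probes, ASNS and DDIT4, against 4.02% of all probes.

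Among the sensor and the transcription factors, ERN1 was measured at the limit of detection. Its probe was well above background on 2 control arrays, 1 paraoxon array and 1 mipafox array. In the order A, B and C, here and below, the log2 signal was -6.92, -6.67 and -7.27 in control, -7.35, -7.68 and -8.10 with paraoxon, and -6.60, -6.45 and -8.47 with mipafox. No fold change is given for it, because on 5 of the 9 arrays the signal was not well above background.

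XBP1, the transcription factor activated by that sensor, measured 3.26, 3.48 and 3.22 in control, 3.40, 3.07 and 3.40 with paraoxon and 3.66, 3.37 and 2.88 with mipafox. The groups overlapped and their means lay within 0.03 of each other, whereas mipafox A and mipafox C were the highest and the lowest of the 9 arrays. The log2 fold change was -0.03 ± 0.21 (SE, n = 3 arrays per group) with paraoxon and -0.02 ± 0.21 with mipafox, with 95% intervals of -0.50 to 0.43 and -0.49 to 0.45. The probe does not separate spliced from unspliced messenger.

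ATF4, the factor translated when eIF2 is phosphorylated, measured 6.05, 5.85 and 5.85 in control, 5.81, 5.87 and 6.19 with paraoxon and 6.16, 5.84 and 5.48 with mipafox. The groups overlapped, with log2 fold changes of 0.04 ± 0.19 with paraoxon and -0.09 ± 0.19 with mipafox. DDIT3, the pro-apoptotic partner induced by ATF4, measured 1.02, 1.21 and 1.16 in control, 1.22, 1.11 and 0.75 with paraoxon and 1.15, 0.83 and 0.31 with mipafox. Mipafox B and C, both on slide 2, lay below all controls, while mipafox A, on the slide of the controls, lay among them. The log2 fold change of DDIT3 with mipafox was -0.37 ± 0.22 (adjusted p = 0.823, limma with Benjamini-Hochberg adjustment), and with slide as a block in the fit it was 0.02 ± 0.26.

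In the fit of treatment means, ASNS, DDIT4 and TRIB3 had the largest log2 fold changes of the members with paraoxon. They are targets of ATF4, but CHAC1, a further target, gave 0.07 and -0.05 at its probes. No member had an unadjusted p under 0.05 in this comparison in limma. ASNS, which makes asparagine and is a standard marker of amino acid shortage, measured 4.21, 4.17 and 4.23 in control, 4.50, 4.70 and 4.74 with paraoxon and 4.54, 4.03 and 3.71 with mipafox. Every paraoxon array lay above every control array, and the control arrays spanned only 0.06. The paraoxon arrays averaged 1.36-fold the control, a log2 fold change of 0.45 ± 0.20 with a 95% interval of -0.01 to 0.90 (limma, adjusted p = 0.385). An exact two-sided permutation test gave p = 0.1, the smallest that 3 against 3 arrays allow.

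TRIB3, a pseudokinase that restrains ATF4 and DDIT3, measured 2.10, 1.89 and 1.94 in control, 2.19, 2.16 and 2.41 with paraoxon and 2.55, 1.92 and 1.41 with mipafox. All paraoxon arrays again lay above the controls, by a log2 fold change of 0.28 ± 0.25 (95% interval -0.30 to 0.85). The mipafox arrays alone ran over 1.15 log2 units, from the highest to the lowest value of all 9.

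DDIT4, an inhibitor of the growth kinase mTOR that rises with many stresses, was read by 10 spots on each array. It measured 0.05, 0.28 and 0.29 in control, 0.59, 0.77 and 0.34 with paraoxon and -0.03, 0.12 and 0.42 with mipafox. The paraoxon arrays lay above the controls, with paraoxon C only just so. The log2 fold change was 0.36 ± 0.17 (95% interval -0.03 to 0.75, limma adjusted p = 0.415). It became 0.06 ± 0.29 with slide as a block. With array weights it was 0.33 with an adjusted p of 0.0491 in limma, a fold still short of the limit for a call. In that fit 4035 of all 29134 probes had an adjusted p under 0.05. Over all alternatives the adjusted p of DDIT4 ran from 0.0491 to 0.949.

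CHAC1, which degrades glutathione and is among the most inducible ATF4 targets, was read by 2 probes. The probe at transcript base 1473 measured 1.55, 1.06 and 1.23 in control, 1.34, 0.92 and 1.77 with paraoxon and 1.59, 1.51 and 1.34 with mipafox. The probe at base 656 measured -2.14, -2.47 and -2.13 in control, -2.04, -2.17 and -2.69 with paraoxon and -2.43, -2.51 and -2.38 with mipafox. The groups overlapped at both probes, and the probes took opposite signs in both comparisons with control. With paraoxon the log2 fold changes were 0.07 ± 0.22 and -0.05 ± 0.19, and with mipafox 0.20 ± 0.22 and -0.19 ± 0.19.

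Of the members that act in folding and degradation, HERPUD1, which helps to clear misfolded proteins from the ER membrane, measured 2.90, 3.03 and 2.94 in control, 3.04, 3.08 and 3.08 with paraoxon and 3.33, 2.80 and 2.46 with mipafox. The paraoxon arrays lay within 0.04 of each other and just above the controls, a log2 fold change of 0.11 ± 0.20. CALR, the calcium-binding chaperone calreticulin, measured 5.87, 5.82 and 5.80 in control, 5.85, 5.71 and 6.18 with paraoxon and 5.95, 6.16 and 5.89 with mipafox. It was the only member whose mipafox arrays all lay above the controls, by a log2 fold change of 0.17 ± 0.16 (95% interval -0.18 to 0.52). Under quantile normalization mipafox A no longer lay above all controls.

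In all, 4 of the 10 member probes had paraoxon arrays that lay above the control arrays without overlap, and none lay below. Among all tested probes 12.4% did so upwards and 11.1% downwards. After quantile normalization in place of the 75th percentile, ASNS and TRIB3 were the 2 member probes left, against 11.3% of all probes. With mipafox and scaling to the 75th percentile, CALR was the 1 probe of 10 above the controls, against 5.34% of all probes. Below the controls lay 0, against 6.46%. The median log2 fold change of the 10 member probes was 0.07 with paraoxon and -0.06 with mipafox, beside 0.01 and 0.00 over all tested probes.

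**Figure D1:**
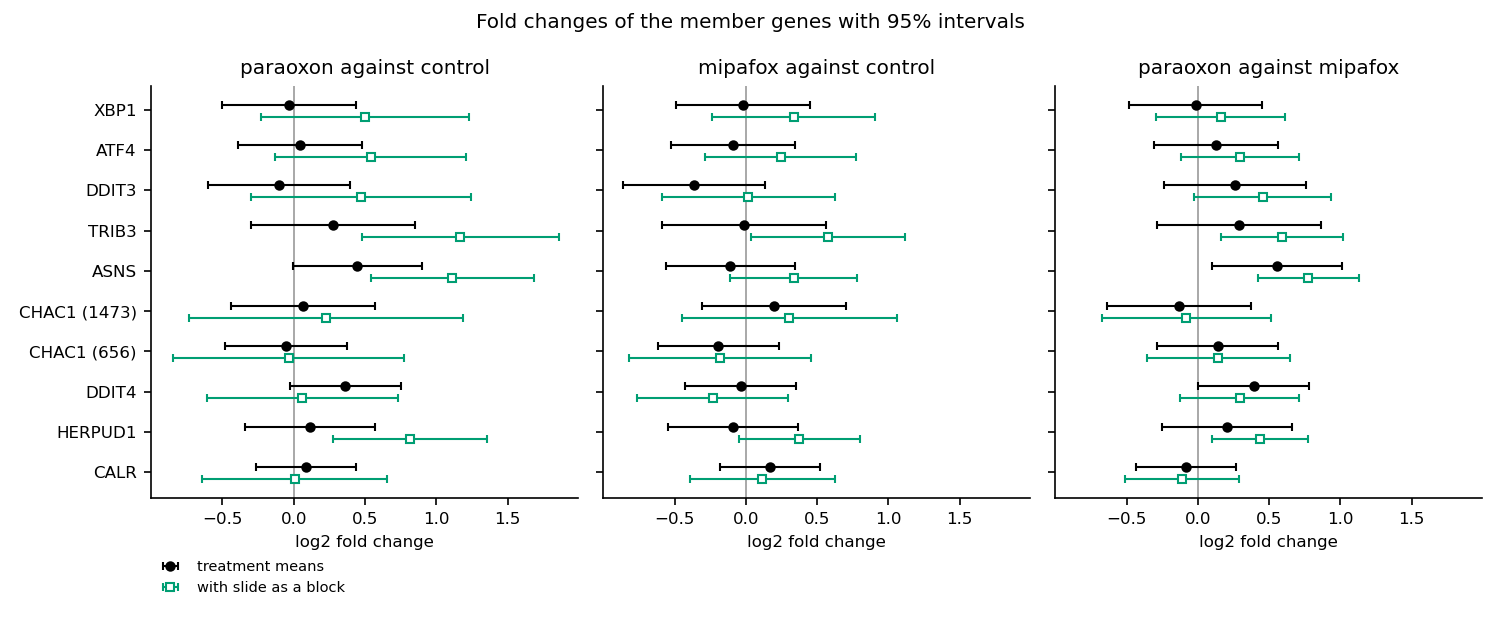
Log2 fold changes (horizontal axis) of the 10 tested member probes in the 3 comparisons, as points with 95% intervals, from limma with treatment means (black circles) and with slide as a block (green squares); the number after CHAC1 is the transcript base of the probe. With treatment means the intervals exclude 0 only for ASNS and DDIT4 in paraoxon against mipafox, and with the slide block the paraoxon values of ASNS, TRIB3 and HERPUD1 move up to 1.11, 1.17 and 0.81 while that of DDIT4 moves down to 0.06.

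Paraoxon and mipafox were given at different doses, so their values stand side by side here. ASNS averaged 4.65 with paraoxon and 4.09 with mipafox, a log2 difference of 0.55 ± 0.20 (95% interval 0.10 to 1.01), and DDIT4 averaged 0.57 and 0.17, a difference of 0.39 ± 0.17 (95% interval 0.0045 to 0.78). In limma the adjusted p was 0.998 for both. The groups overlapped for both genes, as mipafox A exceeded paraoxon A for ASNS and mipafox C exceeded paraoxon C for DDIT4. Leaving out mipafox C took the ASNS difference to 0.36.

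The slides were taken into account in a pair of ways. In the limma fit with treatment and slide, the slide term rests on the mipafox arrays, since these alone lie on both. At the probes of TRIB3, HERPUD1 and ASNS slide 2 was lower than slide 1 by a log2 difference of -0.89 ± 0.25, -0.70 ± 0.20 and -0.67 ± 0.21 (adjusted p = 0.275, 0.275 and 0.300). With that term, paraoxon against control gave log2 fold changes of 1.17 ± 0.30 for TRIB3, 1.11 ± 0.25 for ASNS and 0.81 ± 0.23 for HERPUD1, each with an adjusted p of 0.613, and over all alternatives the adjusted p ran from 0.159 to 0.880 for TRIB3, from 0.0539 to 0.655 for ASNS and from 0.560 to 0.955 for HERPUD1. The median over the member probes was 0.48, beside 0.10 over all tested probes. The fit assumes that mipafox A differs from mipafox B and C by slide alone, and with a single exposed array on slide 1 a slide effect and the deviation of that array cannot be told apart.

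Within a slide no such term is needed, and the differences found there equal those of the fit with slide as a block. In that fit the lowest p over the member probes was 0.000971, for ASNS in paraoxon against mipafox (limma, adjusted p = 0.843), and 0.0383, for TRIB3 in mipafox against control (adjusted p = 0.850). At an unadjusted p under 0.05 the fit counted 935 higher and 631 lower of 29134 probes in paraoxon against mipafox. In mipafox against control it counted 545 higher and 1051 lower. On slide 1, mipafox A exceeded the control mean by 0.58 for TRIB3, 0.38 for HERPUD1, 0.34 for ASNS, 0.34 for XBP1 and 0.24 for ATF4, and differed from it by -0.23 for DDIT4. For DDIT3 and CALR it lay at 0.02 and 0.12, and quantile normalization turned these to -0.04 and -0.06. The same normalization took TRIB3 to 0.45, HERPUD1 to 0.21, ASNS to 0.14, XBP1 to 0.16, ATF4 to 0.04 and DDIT4 to -0.25. XBP1 then no longer lay above all controls. For tested probes at or above their arrays' 75th percentile, the median deviation from the mean of all arrays was 0.12 on mipafox A. On control A, B and C it was -0.01, 0.01 and -0.01. Quantile normalization took the mipafox A value to 0.02. The part of this shift in the member differences was not tested. On slide 2, the paraoxon mean exceeded that of mipafox B and C by 0.78 for ASNS, 0.59 for TRIB3, 0.45 for DDIT3, 0.44 for HERPUD1, 0.30 for ATF4 and 0.29 for DDIT4. At ASNS, TRIB3 and HERPUD1 all 3 paraoxon arrays lay above both mipafox arrays, 3 of 10 member probes against 11.8% of all tested probes.

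**Figure D2:**
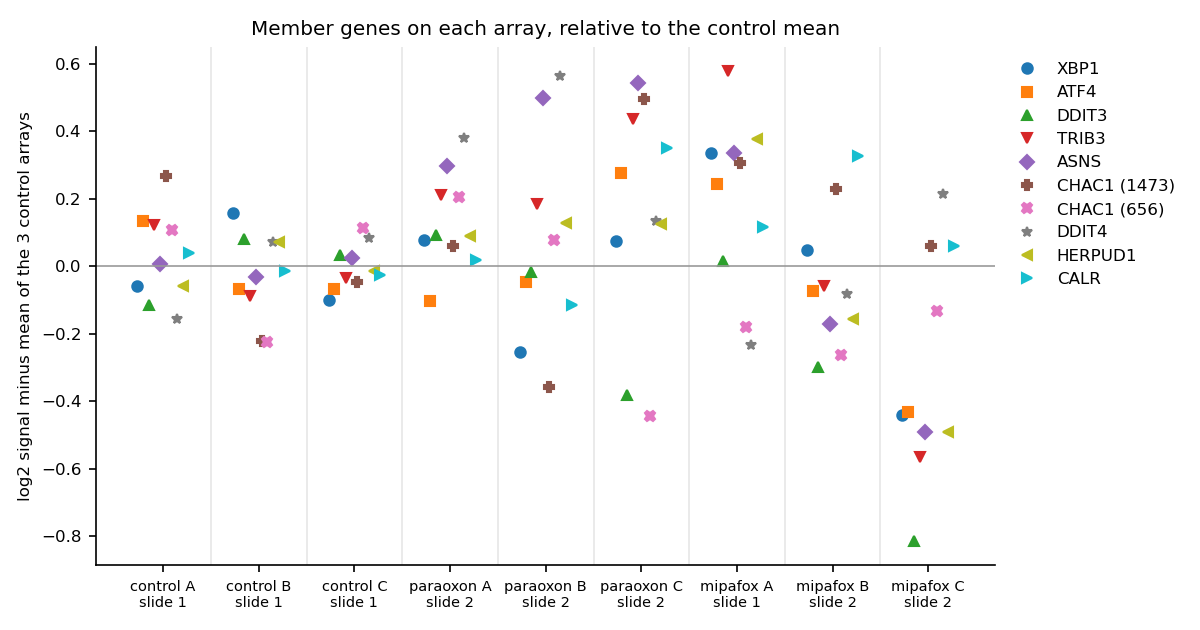
Log2 signal minus the mean of the 3 control arrays (vertical axis) of the 10 tested member probes on each of the 9 arrays (horizontal axis, with the slide), one symbol and colour per probe. Mipafox A carries TRIB3 at 0.58 above the control mean and mipafox C carries DDIT3 at the lowest point of the plot, so the 3 arrays of one treatment spread more widely than the treatment means differ.

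The widest differences in these genes lay between arrays of the mipafox group. Mipafox C was the lowest of all 9 arrays for 6 of the 10 member probes (ASNS, ATF4, DDIT3, HERPUD1, TRIB3 and XBP1), against 26.2% of all tested probes, and under quantile normalization for the same 6, against 16.9%. Mipafox A was the highest for 3 (HERPUD1, TRIB3 and XBP1), against 17.8%, and under quantile normalization no longer for XBP1. The SD between arrays was largest in the mipafox group for 7 of the 10 member probes, with a median of 0.37 in mipafox, 0.21 with paraoxon and 0.11 in control, beside 0.26, 0.21 and 0.18 over all tested probes. DDIT4 and the CHAC1 probe at base 656 ran otherwise, with mipafox C the highest of the mipafox arrays. The weights that limma estimated from all probes were also lowest for mipafox C, at 0.285, and highest for control B, at 4.37. In RNA from whole cultures, fewer cells that express a gene and less RNA per cell cannot be told apart. Array signal, slide and array weight are given here as measured, and their part in the low values of mipafox C was not tested.

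Leaving out mipafox C turned the log2 fold change with mipafox from -0.01 to 0.26 for TRIB3, from -0.11 to 0.08 for ASNS, from -0.09 to 0.11 for HERPUD1 and from -0.09 to 0.09 for ATF4, and took DDIT3 from -0.37 to -0.14. Leaving out mipafox A took the same genes to -0.31, -0.33, -0.32, -0.25 and -0.56. The sign of the mipafox difference thus followed which array was kept for TRIB3, ASNS, HERPUD1 and ATF4. Their paraoxon differences from control use no mipafox array in the fit of treatment means, so only the error could change. For ASNS with paraoxon, leaving out mipafox A took the SE from 0.20 to 0.14 and the adjusted p in limma from 0.385 to 0.183.

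The signals most like the member profiles over the 9 arrays were sought among tested probes with gene names. For the mean of the standardised DDIT3, TRIB3, ASNS and CHAC1 signals the highest Pearson correlations were those of YAF2 (0.978), C6orf192 (0.966), KIAA1462 (0.963), SARS (0.958) and FLJ90757 (0.958). SARS encodes the seryl-tRNA synthetase, which loads serine onto its tRNA, and measured 4.58, 4.41 and 4.05 on mipafox A, B and C. TRIB3 and ASNS correlated with this mean at 0.986 and 0.872, DDIT3 and CHAC1 at 0.609 and 0.395, so that the profile is mostly that of the first pair. For XBP1, HERPUD1 and CALR the closest were TRAPPC4 (0.987), SCGB1D2 (0.986), SCGB1D1 (0.985), UGDH (0.984) and UQCRB (0.982). The 9 arrays share their slides and scaling, and the correlations are a description chosen as the highest of many.

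The promoters of the members, 250 bases before to 50 after each RefSeq transcript start in GRCh38.p14, were searched on both strands for the letters of known stress elements. All 10 genes matched the table, with 16 starts. The ER stress element (ERSE: CCAAT, 9 free bases, CCACG), which binds ATF6 and XBP1 with NF-Y, was found at XBP1 and CALR, and in 0.0769% of all 35116 promoters. Its compact form (ERSE-II: ATTGG, 1 free base, CCACG) was found at HERPUD1, and in 0.0541% of all. The amino acid response element in the form TGATG, 1 free base, AAT was found at 0 of the 16, and in 0.991% of all. A form without the last T, added after the first search, was found at ASNS, CHAC1 and HERPUD1, and in 3.62% of all. The matches are shown on the strand of the gene with 5 bases on each side, and the capitals mark the letters that match the element.
XBP1, ERSE: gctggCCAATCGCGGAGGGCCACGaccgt
CALR, ERSE on the other strand: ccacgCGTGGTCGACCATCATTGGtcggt
HERPUD1, ERSE-II: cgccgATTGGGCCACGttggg
ASNS, amino acid response element: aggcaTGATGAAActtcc
CHAC1, amino acid response element on the other strand: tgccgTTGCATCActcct
HERPUD1, amino acid response element on the other strand: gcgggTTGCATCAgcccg
They lie at chr22:28800598-28800626 (minus strand of the genome), chr19:12938379-12938407, chr16:56932020-56932040, chr7:97872464-97872481 (minus strand), chr15:40953257-40953274 and chr16:56931961-56931978 of GRCh38.p14. The matches begin 52 bases before the start at XBP1, 225 at CALR and 117 at HERPUD1, and 68 at ASNS, 209 at CHAC1 and 176 at HERPUD1 for the amino acid element. Between paraoxon and control, XBP1 and CALR, with an ERSE, overlapped, HERPUD1, with both the compact ERSE and the amino acid element, did not, and of the genes with the amino acid element alone ASNS did not and CHAC1 did; a match of letters is a description and no evidence of binding in these cells.

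The wider pathway was read from 6 lists with 87 further genes on the array, of which 86 genes, with 111 probes, were tested. In limma no probe of the lists was called in any of the 3 comparisons, and the lowest adjusted p was 0.0950 with paraoxon and 0.295 with mipafox. At an unadjusted p under 0.05, 6 of the 111 probes were higher and 12 lower with paraoxon, against 7.31% higher and 6.02% lower among all tested probes, and 1 was higher and 11 lower with mipafox, against 2.96% and 4%. The counts of each list below stand against the same shares. The median log2 fold change was -0.02 with paraoxon and -0.04 with mipafox, beside 0.01 and 0.00 over all tested probes. With slide as a block, 13 of the 49 list probes whose paraoxon difference exceeded its SE changed sign, as did 8 of the 43 such probes with mipafox.

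ER chaperones and folding enzymes, the main output of the unfolded protein response, comprised 21 tested probes of 16 genes. Of these, 0 were higher and 3 lower with paraoxon at an unadjusted p under 0.05, and 0 and 1 with mipafox. HSPA5, the chaperone BiP that holds the sensors inactive, measured -0.78, -0.57 and -0.65 in control, -0.54, -0.61 and -0.45 with paraoxon and -0.24, -0.77 and -1.06 with mipafox. Mipafox A was its highest and mipafox C its lowest array, as for HERPUD1, TRIB3 and XBP1. Its log2 fold changes were 0.14 ± 0.20 with paraoxon and -0.02 ± 0.20 with mipafox, and 0.82 and 0.43 with slide as a block. HSP90B1 (GRP94) gave 0.10 ± 0.14 with paraoxon and 0.10 ± 0.14 with mipafox at its brighter probe, and -0.04 ± 0.21 and 0.05 ± 0.21 at the other. The disulphide isomerase PDIA4 gave -0.08 ± 0.29 and -0.26 ± 0.29, and the co-chaperone DNAJB9, a target of XBP1, -0.005 ± 0.15 and -0.10 ± 0.15. SDF2L1, which works with BiP, gave -0.15 ± 0.22 and -0.13 ± 0.22, which turned to 0.52 and 0.31 with slide as a block.

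ER-associated degradation and translocation comprised 28 probes of 19 genes, of which 1 was higher and 3 lower with paraoxon at an unadjusted p under 0.05, and 1 and 3 with mipafox. SEL1L, the scaffold of the degradation complex, measured -0.97, -0.81 and -0.87 in control, -0.21, -0.38 and -0.18 with paraoxon and -0.57, -0.35 and -0.99 with mipafox at its brightest probe. Its paraoxon arrays lay well above the controls, a log2 fold change of 0.63 ± 0.17 (limma, adjusted p = 0.162), and 0.73 with slide as a block. The other SEL1L probes gave 0.58 ± 0.30 and -0.41 ± 0.24, so the probes of this gene disagree in sign. EDEM1, which directs misfolded glycoproteins to degradation, gave -0.11 ± 0.37 with paraoxon and -0.07 ± 0.37 with mipafox, and -0.90 and -0.60 with slide as a block. MBTPS2, the protease that releases ATF6, was named after its values were seen: it measured -2.05, -2.08 and -2.16 in control, -2.60, -2.66 and -2.85 with paraoxon and -2.63, -2.67 and -2.77 with mipafox. Both exposed groups lay below all controls, with log2 fold changes of -0.60 and -0.59 and an adjusted p of 0.0950 and 0.340 in limma, from comparisons that share their control arrays.

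**Figure D3:**
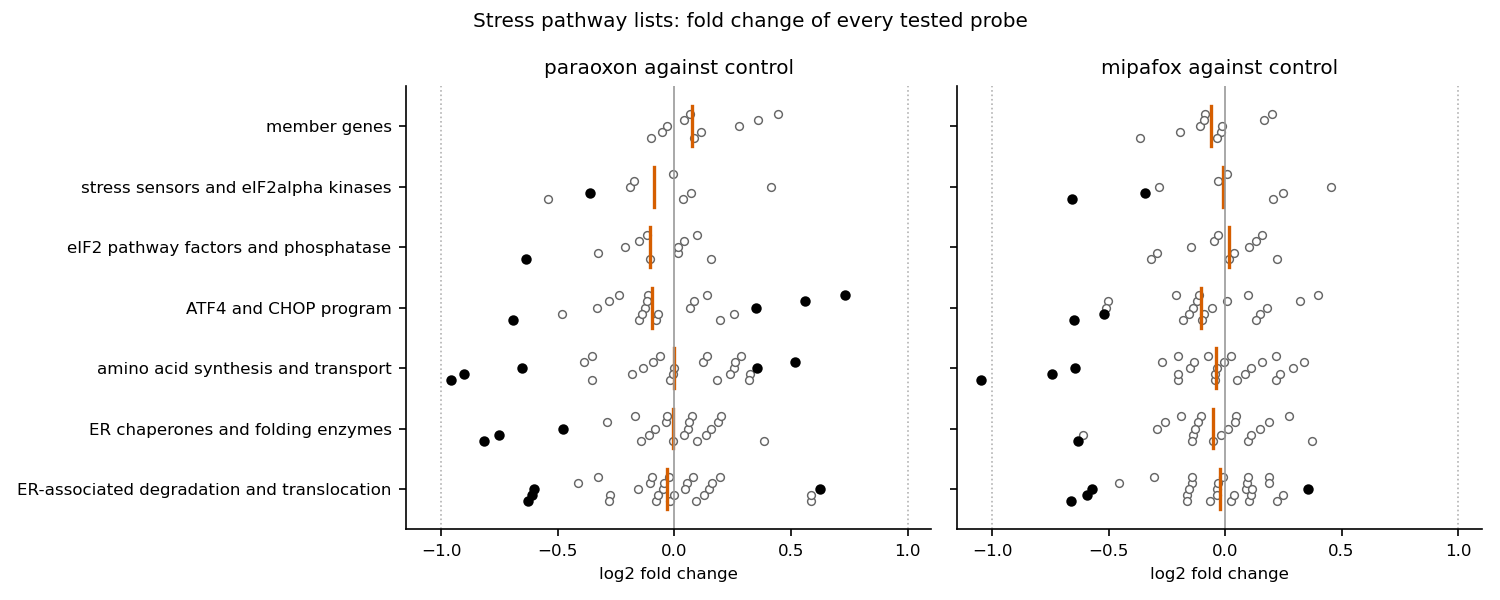
Log2 fold changes (horizontal axis) of every tested probe of the member genes and of the 6 pathway lists (rows), with paraoxon (left) and mipafox (right) against control; filled points have an unadjusted p under 0.05, the orange bar is the median of a row and dotted lines mark the fold limit for a call. No filled point belongs to a member gene, and the medians of all rows lie between -0.11 and 0.07.

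The sensors and eIF2 kinases comprised 8 probes of 7 genes. EIF2AK3 (PERK), the kinase of the ER membrane, gave 0.41 ± 0.31 with paraoxon and -0.03 ± 0.31 with mipafox. ATF6, the sensor activated by proteolysis, gave -0.19 ± 0.24 and 0.21 ± 0.24. With slide as a block EIF2AK3 turned to -0.32 with paraoxon and gave -0.52 with mipafox, and ATF6 gave -0.59 with paraoxon and turned to -0.06 with mipafox. EIF2AK2, the kinase that senses double-stranded RNA, was named after its values were seen and was the one gene of the list under an unadjusted p of 0.05. Its brighter probe gave -0.36 ± 0.13 with paraoxon and -0.34 ± 0.13 with mipafox (limma, adjusted p = 0.270 and 0.640), against the same control arrays. The other EIF2AK2 probe gave -0.54 ± 0.28 and -0.66 ± 0.28. Of the 11 probes of 9 eIF2 factors and phosphatase subunits, 1 was lower with paraoxon at that p and 0 were higher. PPP1R15A, which returns eIF2 to its unphosphorylated form, gave -0.12 ± 0.19 and 0.13 ± 0.19, and -0.48 and -0.11 with slide as a block.

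The ATF4 and CHOP program comprised 20 probes of 16 genes, of which 3 were higher and 1 lower with paraoxon at an unadjusted p under 0.05, and 0 and 2 with mipafox. ATF3, a stress-induced repressor, had 4 probes that disagreed: the brightest gave 0.06 ± 0.15 with paraoxon and the others 0.73 ± 0.21, -0.33 ± 0.18 and -0.48 ± 0.45. With slide as a block these became 0.34, 0.37, 0.14 and -0.37, with a change of sign at the third. SESN2, which senses leucine, gave -0.11 ± 0.26 with both compounds. VLDLR, a lipoprotein receptor, gave -0.13 ± 0.21 with paraoxon and -0.16 ± 0.21 with mipafox at its brighter probe, and -0.69 ± 0.24 and -0.51 ± 0.24 at the other. With slide as a block the brighter probe gave -0.63 and -0.49 and the other -0.10 and -0.11. STC2, a secreted glycoprotein induced by ER stress, was named after its values were seen and measured -0.76, -0.62 and -0.64 in control, -0.09, -0.20 and -0.05 with paraoxon and -0.66, -0.25 and -0.16 with mipafox. Its log2 fold change with paraoxon was 0.56 (limma, adjusted p = 0.166) and became 0.10 with slide as a block, the mipafox arrays being split by slide.

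Amino acid synthesis and transport comprised 24 probes of 20 genes, of which 2 were higher and 3 lower with paraoxon at an unadjusted p under 0.05, and 0 and 3 with mipafox. SLC7A11, the cystine importer, measured 0.77, 0.94 and 0.89 in control, 0.99, 1.44 and 1.23 with paraoxon and 0.85, 0.74 and 0.90 with mipafox. All paraoxon arrays lay above the controls and the mipafox arrays lay among or below them, with log2 fold changes of 0.35 ± 0.15 (limma, adjusted p = 0.348) and -0.04 ± 0.15. The serine pathway enzymes PSAT1 and PHGDH gave 0.18 ± 0.13 and -0.09 ± 0.15 with paraoxon, and 0.09 ± 0.13 and -0.04 ± 0.15 with mipafox. The neutral amino acid transporter SLC38A2, named after its values were seen, had a probe with log2 fold changes of -0.90 with paraoxon and -1.05 with mipafox and a brighter probe with 0.32 and 0.11, so that its probes disagree in sign. With slide as a block the brighter probe turned to -0.51 and -0.45.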

How the data were processed

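RNA was measured on 9 one-colour arrays. Per the file headers the authors extracted the spots with Agilent Feature Extraction 10.5.1.1, and the deposited processed, mean and background signals are intensity values on a linear scale; the deposited log2 values come from the authors' own normalization and were used as an alternative. For the values given, log2 of the processed signal was scaled to the 75th percentile over all non-control spots of its array. Spots with an outlier mark were then dropped, and repeated spots were averaged. The test, limma 3.58.1 (R 4.3.3), took probes well above background on all 3 arrays of any treatment, with treatment means over all 9 arrays and Benjamini-Hochberg adjustment over 29134 probes, and the fit was tested on simulated data. A gene with several probes is represented by its brightest, and the others stand beside it. Named by rule were all members, 16 list genes and list genes with an adjusted p under 0.05, of which there were 0; 4 more were named after their values were seen. The members and lists were chosen with earlier results of these data known. Alternatives covered normalization, background, filter, slide, replicate letter, arrays in the fit, variance model, weights, outliers, threshold and each array left out; quantile counts and the shorter promoter element were added after seeing the data. The number of arrays limits the precision.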

Additional observations from a re-analysis of the deposited data

How the results depend on the processing

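The count of member probes called was 0 in every comparison under all 21 alternatives, including each array left out. Every alternative kept the fold limit for a call, also the one with a threshold on the unadjusted p. The pathway list count was also 0 except in mipafox against control, where array weights and a threshold on the unadjusted p each gave 1, a probe of SLC38A2. The log2 fold change of DDIT3 with mipafox turned to 0.016 with slide as a block, and no other member fold change beyond its standard error changed sign. Over the alternatives, the paraoxon fold change ran from 0.37 to 1.11 for ASNS, from 0.20 to 1.17 for TRIB3, from 0.06 to 0.55 for DDIT4 and from 0.06 to 0.81 for HERPUD1. The replicate letters gave no clear pairing of the arrays. Deviations of same-letter arrays correlated between -0.597 and 0.567, with 5 of 9 pairs over 0.1. Those of arrays with different letters correlated between -0.587 and 0.661. Whether arrays of one letter share a culture was not tested. With the letter as a replicate block, ASNS with paraoxon stayed at 0.45 (adjusted p = 0.473) and no call changed. Over all probes the count called moved from 0 in both comparisons with control. With paraoxon it was 244 higher and 32 lower with the 2 treatments alone, 552 and 119 with array weights, 71 and 2 with normexp background, 1 and 0 with slide as a block, 241 and 35 without mipafox A, 88 and 5 without mipafox B, and 1 and 0 without mipafox C. With mipafox it was 577 and 223 with array weights, 4 and 2 with slide as a block, and 61 and 15 without mipafox A. The cause was not tested.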
